A study of Bos taurus with 44 samples.

Results

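Solute carriers are membrane proteins that move sugars, amino acids, peptides, lipids, vitamins, metals and ions across the plasma membrane or the membranes of organelles, and the families are numbered by sequence relatedness, which broadly follows what they carry. The genes described here are all those on the array whose annotated symbol has the form SLC, number, A, number, with 1 probe per gene. There were 149 of them among 8073 named genes, on 13824 probes in all. They fall into 25 transport classes, the largest being the mitochondrial SLC25 carriers with 26 genes, metal carriers with 21 and amino acid carriers of the SLC1, SLC3, SLC7, SLC36, SLC38 and SLC43 families with 16. All 149 had a value on every array, so none was lost to a filter. Of these genes, 11 had a second probe, which is mentioned where it differed, and 1 further probe that names SLC25A37 together with another gene was left out.

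In ruminants the embryo floats free in the uterus for weeks before it attaches, and it lives on the fluid secreted by the uterine epithelium, called histotroph. Glucose reaches that fluid through facilitated carriers such as SLC2A1, and amino acids through sodium-coupled and exchange carriers such as SLC1A5 and SLC7A5. SLC15A1 is a proton-coupled carrier of small peptides. Carriers of the SLC25 family sit in the inner mitochondrial membrane and link the metabolism of the cytosol with that of the mitochondrion.

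The tissue was cattle endometrium, either caruncular (the button-like areas where the placenta attaches) or intercaruncular (the glandular tissue between them). Each of 44 two-colour arrays set one RNA against another, 1 in each dye. IVF-ET animals (pregnancy from in vitro fertilisation and embryo transfer, 5 animals per area) were set against AI animals (artificial insemination, named IAT in the labels, 5 per area) on 10 arrays per area, with all 5 IVF-ET and 3 AI animals in both areas. SCNT pools (pregnancy after somatic cell nuclear transfer, that is, cloning) were set against AI pools in caruncular tissue on 4 arrays, 2 pools per group in both dyes, with the number of animals per pool not stated. In intercaruncular tissue 5 SCNT animals and 4 AI animals (named IAJ, other animals than IAT) were each set against 5 CJ animals, described by the word cycle, on 10 arrays per group. The labels used here give no breed, age or day of pregnancy.

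Every value below is a difference on the log2 scale, and an animal's value is the mean over its arrays of its ratio to its partners, in both dyes. Ratios hold no level, so levels of different genes were not compared and the tissue could not be checked against its defining markers. The numerator of the ratio is not named in the labels. Red (Cy5) over green (Cy3) is the likely reading, since it gives higher values of 4 interferon-induced genes and lower values of OXTR, the oxytocin receptor, in SCNT and AI animals than in CJ animals, which is the pattern known from early ruminant pregnancy and is therefore no finding here. If the ratio runs the other way, all signs given here are turned round.

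AI animal B4, which is on 4 of the 10 AI arrays with CJ, stood apart from the others in some groups of genes. The median over the 4 interferon-induced genes was -0.29 in B4, against 4.18 to 5.15 in the AI animals B2, B3 and B6 and 3.86 to 4.67 in the SCNT animals. The median over 9 stromal fibroblast markers was 0.63 in B4, against -2.38 to -1.77 in the other AI animals. Over 5 smooth muscle markers it was -0.30, against -2.63 to -2.20. OXTR had the same sign in B4 (-1.19) as in B2, B3 and B6 (-4.34 to -2.73). The median over 8 epithelial markers was 0.33 in B4 and 0.28 to 0.31 in those 3. Values without B4 are therefore given beside AI results whose call or size changes without it. The arrays of SCNT and AI against CJ share the CJ animals, so the differences of both groups are set side by side and no likeness between them is a result. Whole-array profiles of an animal's 2 arrays correlated at 0.25 to 0.69 on the arrays of SCNT with CJ and at 0.21 to 0.55 on those of AI with CJ. In the intercaruncular IVF-ET loop they correlated at -0.52 to 0.29, below 0 in 8 of 10 animals, and in the caruncular one at -0.11 to 0.30, below 0 in 3 of 10. The part of this in the IVF-ET results was not tested.

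The arrays with CJ asked how endometrium of SCNT and AI pregnancies differed from that of cyclic animals. In SCNT against CJ animals, 26 of the 149 carriers were higher and 19 lower (limma, adjusted p under 0.05 over all probes), and in 7 of these the log2 difference was above 1. Of all probes tested, 11.2% were higher and 12.2% lower (23.4% in either direction). Of the 8073 named genes, from which the carriers come, 12.4% were higher and 16.3% lower (28.7% in either direction). The carriers' shares were of the same order, with more rises than falls where the named genes had more falls. In AI against CJ animals, 11 carriers were higher and 12 lower, against 7.92% higher and 8.76% lower of all probes (16.7% in either direction). The named genes were at 9.15% higher and 11.7% lower there (20.9% in either direction). Without B4, 19 carriers were higher and 14 lower in AI, beside 10.1% and 10.3% of all probes (20.4% in all). In SCNT, where the differences stay as they were and only the shared spread and the adjustment change, 30 were then higher and 24 lower, beside 13.2% and 14.3% of all probes (27.5% in all). The median difference of the carriers was 0.02 in SCNT and 0.01 in AI, beside 0.01 for all probes in both. Side by side, 9 genes were higher and 9 lower in both groups against CJ, none was called in opposite directions, and 99 were called in neither. Both groups share the CJ animals and 1 fit, which favours like calls. The matching shares over all probes are not given here, so these counts are no result about the carriers.

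**Figure D1:**
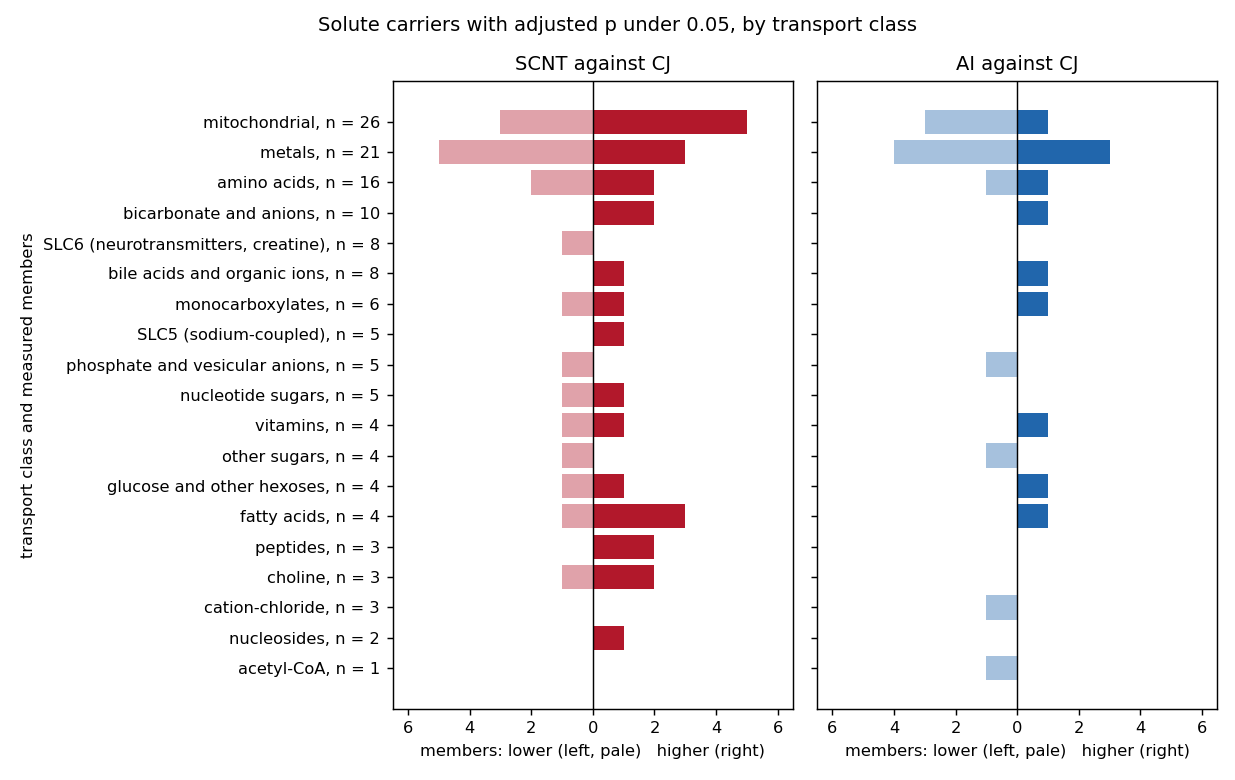
Number of solute carriers with a limma adjusted p under 0.05 in each transport class, in SCNT against CJ animals (left panel) and AI against CJ animals (right panel), intercaruncular tissue. Bars to the right count higher genes and pale bars to the left lower ones; classes with no call are not drawn. Mitochondrial carriers had 5 higher and 3 lower of 26 in SCNT and 1 higher and 3 lower in AI, and metal carriers 3 higher and 5 lower of 21 in SCNT and 3 higher and 4 lower in AI. Among all probes, 23.4% were called in SCNT and 16.7% in AI.

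Among the glucose carriers, SLC2A1, which brings glucose into most cells by facilitated diffusion, had the largest difference of all 149 genes in SCNT. Its values were 2.86, 2.42, 2.33, 2.49 and 2.81 in SCNT animals B811, B873, B888, B902 and B904, against CJ. In AI animals B2, B3, B4 and B6 they were 2.51, 1.83, 0.36 and 1.35. All 9 animals lay above their CJ partners, and B4 was the lowest. SLC2A1 rose 5.98-fold in SCNT (2.58 ± 0.23 on the log2 scale, SE, limma adjusted p = 1.57e-07) and 2.51-fold in AI (1.33 ± 0.24, adjusted p = 0.000517; 1.90 ± 0.20 without B4). SLC2A8, an intracellular hexose carrier, fell slightly in SCNT (-0.26 ± 0.08, adjusted p = 0.0167) and was at -0.22 ± 0.08 in AI (adjusted p = 0.0618; -0.26 ± 0.09, adjusted p = 0.0465 without B4). The call in SCNT held in 9 of the 14 fits that left out 1 animal (-0.30 to -0.23). SLC2A3, a high-affinity glucose carrier, and SLC2A4, the insulin-responsive one of muscle and fat, were at -0.30 and -0.04 in SCNT and -0.23 and 0.01 in AI, and neither passed the test.

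The sodium-coupled glucose carriers did not pass it either. SLC5A1, the carrier of intestinal glucose uptake, was at 0.15 ± 0.17 in SCNT and 0.19 ± 0.17 in AI, and SLC5A2, its renal relative, at 0.00 and -0.05. Of this family only SLC5A6, a carrier of biotin and pantothenate, was called, at 0.44 ± 0.12 in SCNT (adjusted p = 0.0109) and 0.16 ± 0.13 in AI (0.47 ± 0.11 without B4, adjusted p = 0.00567). The SCNT call of SLC5A6 was lost without B5, B857 or B902 (lowest value 0.37). Among the carriers of sugar phosphates, SLC37A1 fell in both groups, by 0.38 ± 0.10 in SCNT and by 0.46 ± 0.10 in AI (adjusted p = 0.00686 and 0.00248); without CJ animal B857 the SCNT value was -0.30 and not called.

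Of the peptide carriers SLC15A1, SLC15A3 and SLC15A4, 2 were higher in SCNT and 0 were called in AI (1, SLC15A3, without B4). Among all probes, 11.2% were higher in SCNT and 7.92% in AI, and so small a class cannot be set apart from these shares. SLC15A1, the proton-coupled carrier of dipeptides and tripeptides best known from the gut, was at 1.23, 2.31, 0.61, 1.86 and 2.02 in SCNT animals B811, B873, B888, B902 and B904. In AI animals B2, B3, B4 and B6 it was at 0.37, 0.91, -0.30 and 0.15. The groups overlapped only through SCNT animal B888, which lay below AI animal B3. SLC15A1 rose 3.05-fold in SCNT against CJ (1.61 ± 0.20, adjusted p = 5.94e-06, higher on 10 of 10 arrays). In AI it was at 0.19 ± 0.21 (adjusted p = 0.7), and at 0.48 ± 0.23 without B4 (adjusted p = 0.189).

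SLC15A3, a carrier of histidine and small peptides in lysosomes of immune cells, was at 1.16, 1.81, 0.73, -0.22 and 1.53 in the SCNT animals in the same order. Its values in the AI animals were 0.75, 0.51, 0.40 and 1.62, and B902 of the SCNT group was the only animal below 0. It rose 2.0-fold in SCNT (1.00 ± 0.27, adjusted p = 0.00979). In AI it was at 0.75 ± 0.28 (adjusted p = 0.0721; 0.96 ± 0.33, adjusted p = 0.0489 without B4). The SCNT call was lost without SCNT animal B873 or B904 or CJ animal B808, with a lowest value of 0.77. SLC15A4, its lysosomal relative, was at -0.02 ± 0.06 in SCNT and 0.03 ± 0.06 in AI.

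**Figure D2:**
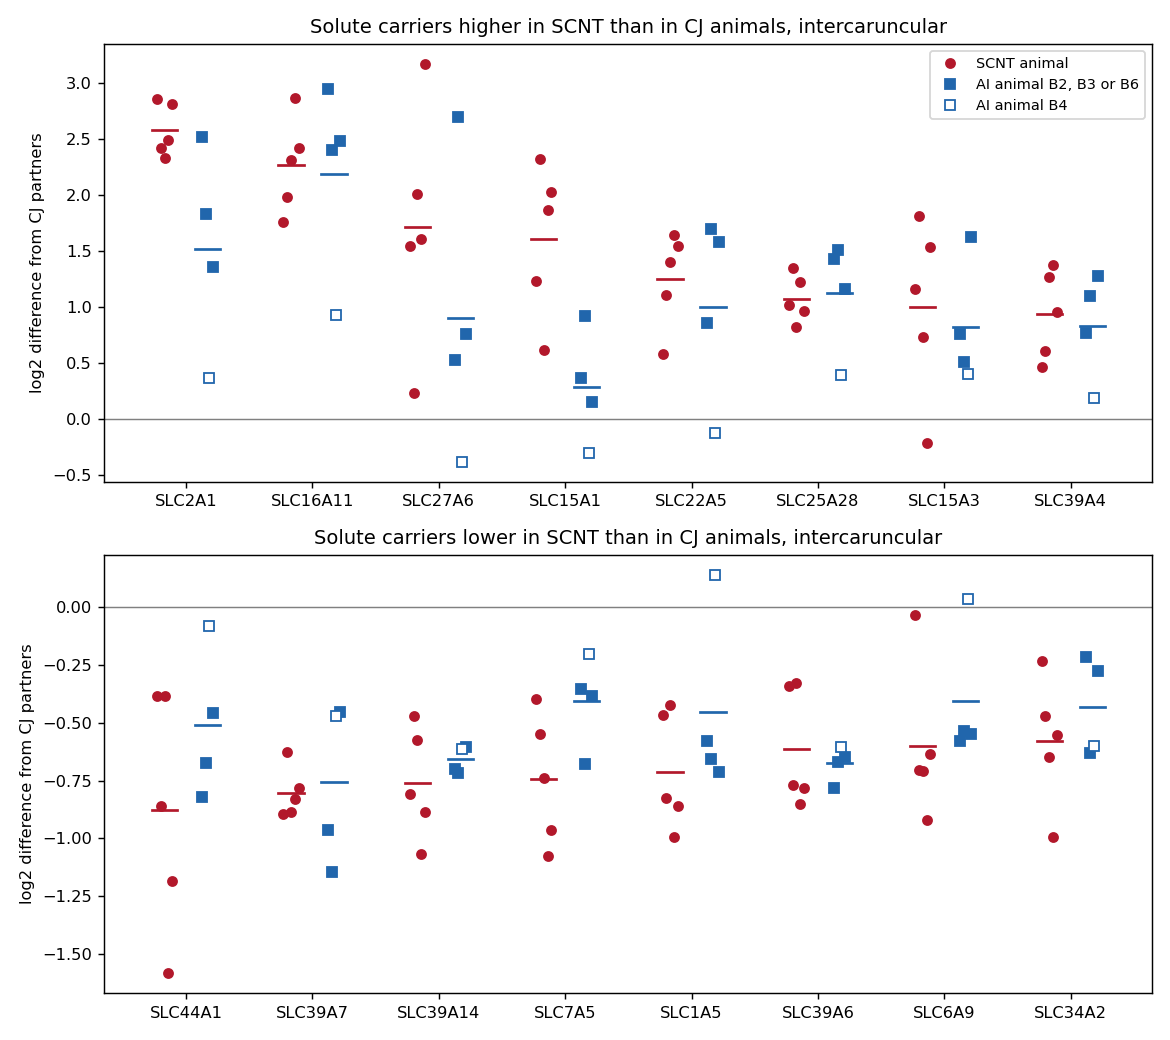
Values per animal against CJ partners (log2 difference, vertical axis) for the 8 carriers with the largest rises (top) and falls (bottom) in SCNT, intercaruncular tissue. Red circles are the 5 SCNT animals, filled blue squares AI animals B2, B3 and B6, open squares AI animal B4, and short lines the means over animals, which count each animal once, unlike the fitted values. SLC2A1 lay between 2.33 and 2.86 in all 5 SCNT animals, and B4 was the lowest AI animal for SLC2A1, SLC16A11, SLC27A6, SLC15A1, SLC22A5, SLC25A28, SLC15A3 and SLC39A4.

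Among the 16 amino acid carriers, 2 were higher and 2 lower in SCNT, and 1 was higher and 1 lower in AI (without B4, 4 and 3 in SCNT and 4 and 1 in AI). The share called among all probes was 23.4% in SCNT and 16.7% in AI (27.5% and 20.4% without B4). The 2 lower in SCNT carry neutral amino acids into proliferating cells. SLC7A5, the light chain of the leucine carrier, was at -0.40, -0.55, -0.74, -1.08 and -0.96 in SCNT animals B811, B873, B888, B902 and B904, and at -0.35, -0.68, -0.20 and -0.38 in AI animals B2, B3, B4 and B6. Every animal lay below its CJ partners. SLC7A5 fell 1.68-fold in SCNT (-0.74 ± 0.13, adjusted p = 0.00024), and in AI it was at -0.37 ± 0.13 (adjusted p = 0.0639). Its second probe was at -0.91 ± 0.19 in SCNT and -0.78 ± 0.19 in AI, and passed the test in both (adjusted p = 0.00106 and 0.00653). Its heavy chain SLC3A2, which carries the complex to the cell surface, was at 0.13 ± 0.09 in SCNT and -0.07 ± 0.09 in AI.

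SLC1A5, a carrier of glutamine and other neutral amino acids, was at -0.47, -0.82, -0.42, -1.0 and -0.86 in the SCNT animals in the same order. In AI animals B2, B3 and B6 it was at -0.58, -0.66 and -0.71, while B4 lay above 0, at 0.14. It fell 1.64-fold in SCNT (-0.71 ± 0.14, adjusted p = 0.000592), and was at -0.36 ± 0.14 in AI (adjusted p = 0.0942) and at -0.65 ± 0.15 without B4 (adjusted p = 0.00332). The 2 carriers that were higher in SCNT were SLC36A2, a proton-coupled carrier of glycine and proline, and SLC43A1, a carrier of large neutral amino acids. SLC36A2 was at 0.79, 1.10, 0.40, 0.87 and 0.67 in the SCNT animals and at 0.45, 0.59, -0.18 and 0.34 in AI animals B2, B3, B4 and B6. It rose 1.70-fold in SCNT (0.77 ± 0.11, adjusted p = 4.32e-05), against 0.23 ± 0.12 in AI (0.46 ± 0.12 without B4, adjusted p = 0.00758). SLC43A1 was at 0.47 ± 0.15 in SCNT (adjusted p = 0.0281), a call that held in 7 of 14 fits without 1 animal. In AI it was at 0.27 ± 0.16 (adjusted p = 0.303), and at 0.52 ± 0.17 without B4 (adjusted p = 0.0325).

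In AI the called amino acid carriers were SLC7A7, an exchanger of basic amino acids (0.31 ± 0.07, adjusted p = 0.00594), and SLC38A2, a sodium-coupled carrier of small neutral amino acids (-0.39 ± 0.12, adjusted p = 0.032). SLC7A7 was at 0.19 in SCNT (adjusted p = 0.0722; 0.0448 without B4). SLC38A2 was at -0.21 in SCNT; its AI call held in 7 of 14 fits without 1 animal (-0.53 to -0.19), and without B4 its value was -0.19 (adjusted p = 0.396). The glutamate carrier SLC1A1 had the widest spread of the class. It was at 0.71, 0.54, 2.03, 0.65 and 0.07 in the SCNT animals and at 1.44, 0.71, -0.88 and 0.82 in AI animals B2, B3, B4 and B6. Its fitted differences were 0.80 ± 0.29 in SCNT (adjusted p = 0.0537) and 0.29 ± 0.30 in AI (adjusted p = 0.674), and without B4 it was called in both, at 0.80 ± 0.21 and 0.99 ± 0.27 (adjusted p = 0.00798 and 0.0137). The other members of these families that were not called with all animals ranged from -0.30 for SLC38A5 to 0.24 for SLC7A4 in SCNT and from -0.35 to 0.14 for the same genes in AI. SLC38A5 was called in SCNT without B4, at -0.30 ± 0.10 (adjusted p = 0.0297). SLC38A10 was at 0.15 in SCNT by its main probe and at 0.29 ± 0.07 by its second, which was called (adjusted p = 0.00422).

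In the SLC6 family, 1 of 8 genes was called, in SCNT, where 23.4% of all probes were. SLC6A9, the plasma membrane carrier of glycine, fell 1.52-fold in SCNT (-0.60 ± 0.13, adjusted p = 0.00222). It was at -0.04, -0.70, -0.71, -0.92 and -0.64 in SCNT animals B811, B873, B888, B902 and B904, so B811 lay near 0. In AI it was at -0.58, -0.54 and -0.55 in B2, B3 and B6 and at 0.04 in B4, with a fitted -0.33 ± 0.14 (adjusted p = 0.113; -0.56 ± 0.15, adjusted p = 0.0124 without B4). The creatine carrier SLC6A8 and the taurine carrier SLC6A6 were at -0.35 and 0.02 in SCNT and 0.07 and 0.09 in AI, and passed no test; without B4, SLC6A8 was called in SCNT at -0.35 ± 0.10 (adjusted p = 0.014).

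Of the 26 mitochondrial SLC25 carriers, 5 were higher and 3 lower in SCNT, and 1 was higher and 3 lower in AI (without B4, 6 and 4 in SCNT and 3 and 3 in AI). Beside these counts stand the 23.4% of all probes called in SCNT and 16.7% in AI (27.5% and 20.4% without B4). SLC25A28, also called mitoferrin 2, which brings iron into mitochondria, was at 1.01, 1.35, 0.82, 1.22 and 0.96 in the SCNT animals and at 1.43, 1.51, 0.39 and 1.16 in AI animals B2, B3, B4 and B6. All 9 animals lay above CJ. It rose 2.10-fold in SCNT (1.07 ± 0.17, adjusted p = 7.87e-05) and 2.0-fold in AI (1.00 ± 0.17, adjusted p = 0.000345; 1.36 ± 0.16 without B4), and was higher on 10 of 10 arrays in both.

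SLC25A6, an exchanger of ADP for ATP, was at 0.93, 1.01, 0.57, 0.25 and 0.65 in SCNT animals B811, B873, B888, B902 and B904. In AI animals B2, B3 and B6 it was at 0.24, -0.13 and -0.22, and B4 had the highest AI value, 0.84. It rose 1.60-fold in SCNT (0.68 ± 0.13, adjusted p = 0.000607) and was at 0.29 ± 0.14 in AI (adjusted p = 0.178). That AI value rested on B4, since B2, B3 and B6 all lay below it, and the gene was not called in AI without B4 either. SLC25A4, the ADP and ATP exchanger of muscle, was at 0.08 in SCNT and -0.10 in AI, neither called. The other 3 rises in SCNT were smaller: SLC25A33, a carrier of pyrimidine nucleotides (0.49 ± 0.11, adjusted p = 0.0026), SLC25A29, a carrier of basic amino acids (0.25 ± 0.07), and SLC25A14, a relative of the uncoupling proteins (0.24 ± 0.08). The calls of SLC25A29 and SLC25A14 held in 12 and 9 of 14 fits without 1 animal, that of SLC25A33 in all 14. In AI these genes were at 0.01, 0.07 and 0.19, and none was called with all animals, while SLC25A14 was called without B4 (0.29 ± 0.09, adjusted p = 0.0292).

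The mitochondrial falls were those of SLC25A3, SLC25A24 and SLC25A25, in both groups. SLC25A3, the phosphate carrier that feeds ATP synthesis, was at 0.22, -0.23, -0.19, -0.60 and -0.64 in the SCNT animals and at -0.69, -0.85, -0.36 and -0.89 in AI animals B2, B3, B4 and B6. Animal B811 of the SCNT group was the only one above CJ. SLC25A3 fell 1.56-fold in AI (-0.64 ± 0.11, adjusted p = 0.000231; -0.81 ± 0.12 without B4). In SCNT it was at -0.29 ± 0.10, close to the threshold (adjusted p = 0.049), and the call held in 3 of 14 fits without 1 animal (-0.41 to -0.20). SLC25A24, which exchanges ATP-magnesium for phosphate under control of calcium, fell by 0.48 ± 0.09 in SCNT and by 0.45 ± 0.09 in AI (adjusted p = 0.000289 and 0.000922; by 0.36 ± 0.10 in AI without B4). Its relative SLC25A25 fell by 0.29 ± 0.09 and by 0.35 ± 0.10 (adjusted p = 0.0262 and 0.0153), and without B4 the AI value was -0.33 (adjusted p = 0.0757). Its calls held in 7 of 14 fits without 1 animal in SCNT (-0.20 without B857 at the smallest) and in 10 of 14 in AI. The remaining 18 mitochondrial carriers, among them the citrate carrier SLC25A1 and the carnitine carrier SLC25A20, passed the test in neither group with all animals in the fit. Without B4, SLC25A38, a glycine carrier, was called at 0.35 ± 0.13 in SCNT and 0.53 ± 0.16 in AI, SLC25A13, the aspartate and glutamate exchanger citrin, at -0.29 ± 0.09 in SCNT, and SLC25A11, the oxoglutarate carrier, at -0.26 ± 0.08 in AI.

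Of 18 measured genes for other mitochondrial pores and importers, 0 were higher and 4 lower in SCNT, and 0 were higher and 8 lower in AI (6 and 10 lower without B4), beside the 12.2% and 8.76% of all probes that were lower. MPC1 and MPC2, which form the mitochondrial pyruvate carrier, fell in AI (-0.75 ± 0.12 and -0.59 ± 0.09), and TIMM23, part of the protein import channel, fell in SCNT (-0.31 ± 0.08) and AI (-0.45 ± 0.08). SFXN3, a mitochondrial serine carrier, fell in SCNT (-0.64 ± 0.11) and AI (-0.56 ± 0.11).

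Of the 5 largest rises in SCNT, 3 were those of SLC16A11, SLC27A6 and SLC22A5. These genes belong to different transport classes and were not tested as a set. SLC16A11, a member of the family that carries lactate, pyruvate and ketone bodies, was at 1.76, 1.98, 2.31, 2.86 and 2.42 in SCNT animals B811, B873, B888, B902 and B904. In AI animals B2, B3, B4 and B6 it was at 2.94, 2.39, 0.92 and 2.48. It rose 4.81-fold in SCNT (2.27 ± 0.29, adjusted p = 7.86e-06) and 3.94-fold in AI (1.98 ± 0.30, adjusted p = 9.00e-05; 2.60 ± 0.26 without B4). SLC16A5 fell by 0.29 ± 0.08 in SCNT (adjusted p = 0.0102, lost without B5 or B904, where it was -0.24) and was at -0.17 in AI. The lactate exporter SLC16A3 was at -0.12 in SCNT and -0.06 in AI, neither called.

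All 4 measured fatty acid carriers of the SLC27 family were called in SCNT, 3 higher and 1 lower, beside 23.4% of all probes. So small a class does not allow its share to be compared. SLC27A6 varied widely between animals, with 1.54, 0.23, 2.0, 1.60 and 3.17 in the SCNT animals and 0.52, 2.69, -0.38 and 0.76 in AI animals B2, B3, B4 and B6. It rose 3.27-fold in SCNT (1.71 ± 0.38, adjusted p = 0.00207) and was at 0.69 ± 0.39 in AI (adjusted p = 0.291; 1.32 ± 0.44, adjusted p = 0.0403 without B4). SLC27A1 rose in both groups (0.30 ± 0.09 in SCNT, adjusted p = 0.0205, and 0.51 ± 0.09 in AI, adjusted p = 0.000714). SLC27A2 rose by 0.31 ± 0.11 and SLC27A4 fell by 0.47 ± 0.11 in SCNT (adjusted p = 0.0451 and 0.0034), and neither was called in AI with all animals (0.04 and -0.27). Without B4, SLC27A4 was called in AI as well, at -0.41 ± 0.13 (adjusted p = 0.0325). The SCNT calls of SLC27A1 and SLC27A2 held in 8 and 6 of 14 fits without 1 animal, and SLC27A2 was at 0.20 without B904.

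SLC22A5, which takes up carnitine for fatty acid oxidation, was at 0.58, 1.10, 1.40, 1.64 and 1.54 in the SCNT animals and at 0.85, 1.70, -0.13 and 1.58 in AI animals B2, B3, B4 and B6. It rose 2.38-fold in SCNT (1.25 ± 0.26, adjusted p = 0.00128) and 1.76-fold in AI (0.82 ± 0.27, adjusted p = 0.0413). The AI call depended on single animals. It held in 4 of 14 fits that left out 1 animal, with values of 0.59 to 1.38, was lost without AI animals B2, B3 or B6, without CJ animals B5, B7, B808 or B857 and without SCNT animals B888, B902 or B904, and was 1.38 ± 0.25 without B4 (adjusted p = 0.000527).

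Among the metal carriers, 3 zinc carriers fell in every animal of both groups. SLC39A7, which releases zinc from the endoplasmic reticulum, was at -0.89, -0.63, -0.89, -0.83 and -0.78 in SCNT animals B811, B873, B888, B902 and B904, and at -0.97, -1.14, -0.47 and -0.45 in AI animals B2, B3, B4 and B6. SLC39A14, a carrier of zinc and iron, was at -0.81, -0.47, -0.57, -1.07 and -0.89 in the SCNT animals and at -0.70, -0.72, -0.61 and -0.60 in the AI animals. SLC39A6, a zinc importer of the plasma membrane, was at -0.34, -0.77, -0.33, -0.85 and -0.78 in SCNT and -0.78, -0.67, -0.60 and -0.65 in AI. Every animal lay below CJ for all 3 genes, B4 included, and all 20 arrays had the same sign. Here and for other genes named for a large called difference, that choice and the shared CJ animals favour like signs. They are therefore no added support. In SCNT the falls were 1.75-fold for SLC39A7 (-0.80 ± 0.12), 1.69-fold for SLC39A14 (-0.76 ± 0.10) and 1.53-fold for SLC39A6 (-0.61 ± 0.09), with adjusted p of 2.96e-05, 1.01e-05 and 3.21e-05. In AI they were -0.71 ± 0.12, -0.65 ± 0.10 and -0.66 ± 0.09 (adjusted p = 0.000224, 0.000133 and 3.39e-05).

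SLC39A4, the zinc importer of the intestine, went the other way. It was at 0.46, 0.61, 1.26, 1.38 and 0.95 in the SCNT animals and at 0.77, 1.09, 0.18 and 1.28 in AI animals B2, B3, B4 and B6. It rose 1.91-fold in SCNT (0.93 ± 0.16, adjusted p = 0.00024) and 1.65-fold in AI (0.72 ± 0.17, adjusted p = 0.00415; 1.05 ± 0.19 without B4). SLC31A2, a copper carrier of endosomes and lysosomes, was at 1.05, 0.93, 0.70, 0.74 and 0.81 in the SCNT animals and at 1.17, 0.94, -0.18 and 0.72 in the AI animals. It rose by 0.84 ± 0.16 in SCNT (adjusted p = 0.000513) and by 0.53 ± 0.16 in AI (adjusted p = 0.0301). That AI value was 0.94 ± 0.13 without B4. It lost its call without B2, B3, B5, B6, B7, B808 or B857 (lowest 0.36), and with the second spot only.

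SLC39A1 fell in both groups (-0.28 ± 0.08 in SCNT and -0.29 ± 0.08 in AI), and SLC39A9 fell in SCNT (-0.25 ± 0.08, called in 8 of 14 fits without 1 animal), where its second probe, at -0.12 ± 0.12, did not pass. SLC39A1 was not called in SCNT without B808 or B888 (-0.25 and -0.24), nor in AI without B2, B3 or B7 (-0.26, -0.22 and -0.18). SLC11A2, the intestinal iron importer, was at 0.41 ± 0.14 in SCNT (adjusted p = 0.0393, called in 5 of 14 fits without 1 animal) and 0.09 in AI. SLC40A1, the iron exporter ferroportin, was at 0.24 ± 0.09 in SCNT (adjusted p = 0.0577) and 0.27 ± 0.09 in AI (adjusted p = 0.0435, called in 6 of 14 fits without 1 animal; adjusted p = 0.188 without B4). The zinc exporters SLC30A1, SLC30A4, SLC30A5 and SLC30A6 lay between -0.05 and 0.04 in SCNT and -0.20 and -0.01 in AI and passed no test, although the second probe of SLC30A5 was at -0.46 ± 0.13 in SCNT (adjusted p = 0.0107).

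Carriers of choline, vitamins, phosphate and other solutes made up the rest of the calls. SLC44A1, a choline carrier of the plasma membrane and mitochondria, had the largest fall in SCNT, at -0.38, -0.86, -0.38, -1.58 and -1.19 in B811, B873, B888, B902 and B904 and -0.82, -0.68, -0.08 and -0.46 in AI animals B2, B3, B4 and B6. It fell 1.84-fold in SCNT (-0.88 ± 0.20, adjusted p = 0.0021) and was at -0.44 ± 0.20 in AI (adjusted p = 0.16; -0.65 ± 0.22, adjusted p = 0.0425 without B4). Its relatives SLC44A2 and SLC44A4 rose in SCNT (0.35 ± 0.09 and 0.60 ± 0.09, adjusted p = 0.00474 and 4.04e-05) and were at 0.11 and 0.22 in AI. SLC46A3, a lysosomal carrier, rose in both groups, by 0.68 ± 0.09 in SCNT (adjusted p = 2.25e-05) and by 0.32 ± 0.10 in AI (adjusted p = 0.0274; 0.44 ± 0.12 without B4). The AI call of SLC46A3 was lost without B2, B3, B5, B6, B7, B808 or B857 (lowest value 0.21). It was also lost with the first spot only and with the second spot only. SLC34A2, the epithelial sodium and phosphate carrier, fell on all 20 arrays, at -0.58 ± 0.10 in SCNT (adjusted p = 0.000263) and -0.46 ± 0.11 in AI (adjusted p = 0.00398; -0.37 ± 0.13, adjusted p = 0.0505 without B4; also lost without B857).

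SLC12A2, the sodium, potassium and chloride importer, fell by 0.51 ± 0.15 in AI (adjusted p = 0.0171) and was at -0.05 ± 0.14 in SCNT. In AI animals B2, B3, B4 and B6 it was at -0.53, -0.85, -0.80 and 0.35, and the call was lost without B3, B4, B7, B8 or B857 (-0.45 to -0.34). SLC4A11, a relative of the bicarbonate carriers, rose in SCNT (0.63 ± 0.14, adjusted p = 0.0024), as did SLC29A1, the equilibrative nucleoside carrier (0.36 ± 0.09, adjusted p = 0.00388; 0.23 without B873, where it was still called). SLC26A11, an anion exchanger, rose by 0.30 ± 0.08 in SCNT and by 0.25 ± 0.08 in AI; the SCNT call was lost without B811 (0.22), and the AI call held in 4 of 14 fits without 1 animal (0.16 to 0.31). The folate carrier SLC19A1 fell in SCNT (-0.48 ± 0.16, adjusted p = 0.0283, called in 7 of 14 fits without 1 animal). In AI it was at -0.15 ± 0.16, and at -0.48 ± 0.15 without B4 (adjusted p = 0.0268). SLC33A1, which brings acetyl-CoA into the endoplasmic reticulum, fell in AI (-0.37 ± 0.12, adjusted p = 0.0342; -0.14 ± 0.13 without B4; called in 9 of 14 such fits). The nucleotide sugar carriers SLC35A1 and SLC35A5 were at -0.23 and 0.29 in SCNT with adjusted p of 0.0445 and 0.0414, and each call held in 5 of 14 fits without 1 animal (-0.14 without B857 for SLC35A1 at the smallest). Both genes also lost their calls with scaled arrays, with array weights and with the second spot only, and SLC35A1 with the first spot only. In AI they were at -0.22 and 0.19, neither called, and SLC35A5 was called without B4 (0.44 ± 0.10, adjusted p = 0.00355). SLC18A2, the vesicular monoamine carrier, passed the test only without B4, at 0.72 ± 0.17 in SCNT and 1.30 ± 0.22 in AI (adjusted p = 0.00321 and 0.000273); B4 itself was at -0.62, against 1.25 to 1.36 in the other AI animals.

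**Figure D3:**
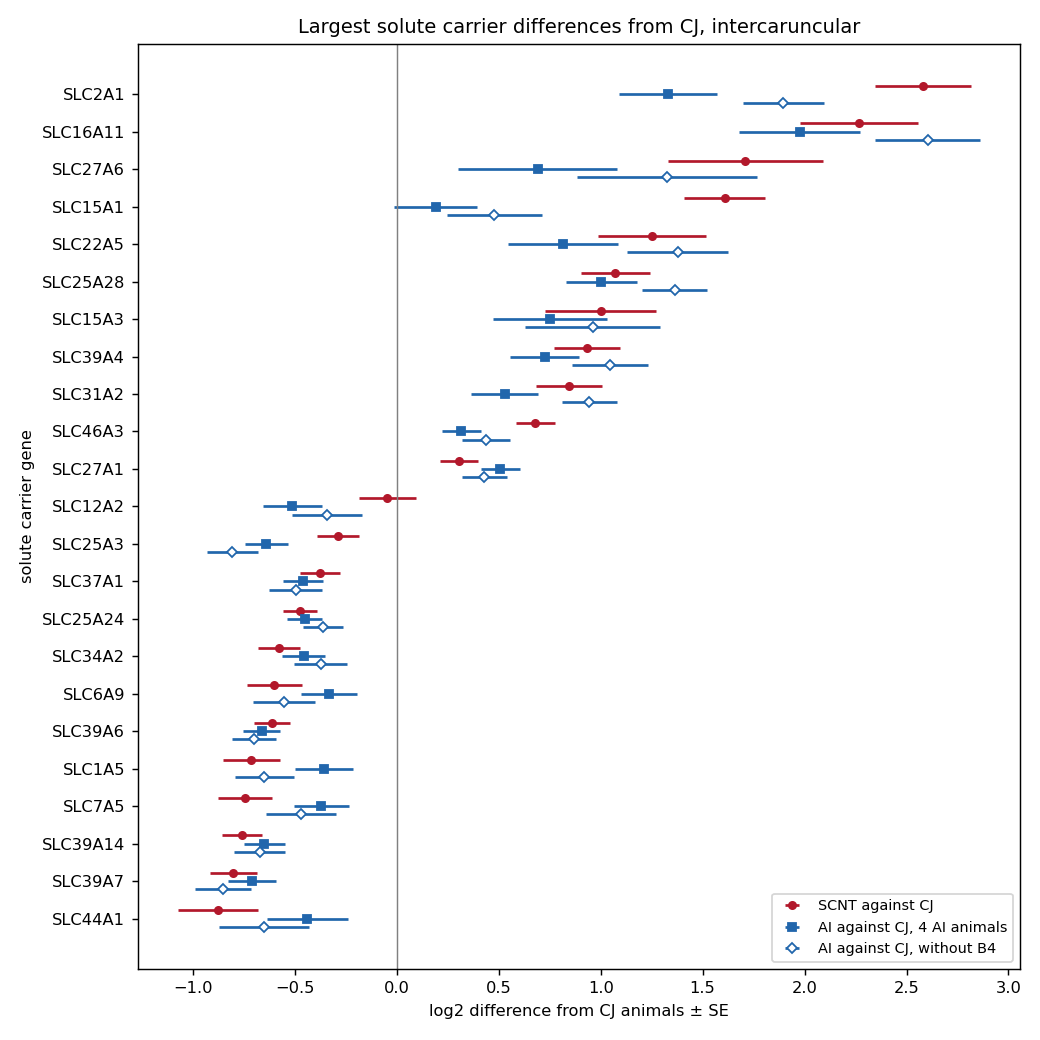
Fitted log2 differences from CJ ± SE (horizontal axis) for the carriers with the largest calls in either group, intercaruncular tissue. Red circles show SCNT, filled blue squares AI with all 4 animals, and open diamonds AI without B4, each measured against the same CJ animals. SLC2A1 stood at 2.58 in SCNT, 1.33 in AI and 1.90 in AI without B4, while SLC39A6, SLC39A7 and SLC39A14 lay between -0.85 and -0.61 in all 3.

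Genes that work with these carriers are read against the 23.4% of all probes called in SCNT and 16.7% in AI. Of 14 measured subunits of the sodium pump and carrier partners, which set the sodium gradient or hold carriers at the membrane, 2 were higher and 3 lower in SCNT, and the count was the same in AI (3 and 4 in SCNT and 2 and 3 in AI without B4). ATP1B3, a beta subunit of the sodium pump, fell by 0.90 ± 0.09 in SCNT and by 0.91 ± 0.10 in AI, and FXYD1, a regulator of the pump, rose by 0.88 ± 0.16 and by 0.89 ± 0.16. Of 8 aquaporins and organic anion carriers, 2 were higher and 1 lower in SCNT and 1 higher and 1 lower in AI (2 and 0 in AI without B4). The water channel AQP4 rose in both (0.84 ± 0.19 in SCNT and 0.62 ± 0.19 in AI, 1.03 ± 0.19 without B4), and AQP1, the water channel of blood vessels, fell in SCNT (-0.88 ± 0.23). Of 13 ABC transporters, which use ATP to pump solutes, 1 was higher in SCNT and 2 in AI with and without B4, and 0 were lower. Among all probes, 11.2% were higher in SCNT and 7.92% in AI. ABCC5 was called in both groups (0.29 ± 0.08 in SCNT and 0.41 ± 0.08 in AI).

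Markers of cell types moved on the same arrays. Of 9 stromal fibroblast markers, 8 fell in SCNT (median -1.62) and 4 in AI (median -0.90). Without B4, 9 fell in SCNT and 7 in AI, where the median was then -2.08 and COL1A1 stood at -2.79, against -1.71 with B4 and -2.86 in SCNT. Of 5 smooth muscle markers, 4 fell in SCNT (median -2.18) and 2 in AI (median -1.08; 3 without B4, median -2.39). Of 8 epithelial markers, 4 rose and 1 fell in SCNT (median 0.41), and 3 rose in AI (median 0.27). Without B4 the counts were 5 and 1 in SCNT and 3 and 1 in AI. CLDN3 was at 1.28 in SCNT and 0.97 in AI, and KRT19, which fell in SCNT, was at -1.01 and -0.22. Of 7 trophoblast markers, 4 rose in SCNT, with medians per animal of 0.65, 0.01, 0.14, 1.48 and 0.15 in B811, B873, B888, B902 and B904, and 0 were called in AI with or without B4. Of 5 endothelial markers, 1 rose and 2 fell in SCNT, and 0 rose and 1 fell in AI. Of 6 leukocyte markers, 0 were called in SCNT and 1 rose in AI. In RNA of whole tissue, fewer cells of a type and less RNA per cell cannot be told apart, and the part of these shifts in the carriers' differences was not tested.

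The labels compare SCNT with AI in intercaruncular tissue through the CJ animals, and the difference of the differences was tested in the same fit. Of the 149 carriers, 1 was higher and 0 lower in SCNT than in AI, beside 0.268% higher and 0.0362% lower of all probes (0.304% in either direction). At an unadjusted p under 0.05 there were 16, or 10.7%, beside 8.21% of all probes. The 1 gene was SLC15A1, which was 2.67-fold higher in SCNT (1.42 ± 0.27, 95% interval 0.86 to 1.98, adjusted p = 0.0173). The call rested on single animals: it was lost in 9 of the 14 fits that left out 1 animal, namely B4, B5, B6, B8, B808, B857, B873, B902 or B904, over which the value ranged from 1.13 to 1.68. Without B4 it was 1.13 ± 0.30 (adjusted p = 0.281), and 0 carriers were then called, beside 0.0579% of all probes.

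SLC2A1 was 1.25 ± 0.31 higher in SCNT than in AI (95% interval 0.60 to 1.90, adjusted p = 0.121), and 0.68 ± 0.25 without B4 (adjusted p = 0.77). The next were SLC36A2 at 0.54 ± 0.15 (adjusted p = 0.203), SLC44A4 at 0.38 ± 0.12 and SLC25A33 at 0.47 ± 0.15 (adjusted p = 0.29 for both). None of these passed the test. Over the 149 carriers the median reach of the 95% interval to either side was 0.25 and the widest 1.06 (SLC27A6). These intervals are not adjusted for the number of probes. In 1 carrier, the sodium and calcium exchanger SLC8A1, the values of all SCNT animals lay on one side of all AI animals, which is 0.671% of the carriers, against 1.5% of all probes. Without B4 there were 5, with SCNT above AI in 4 and below in 1, which is 3.36% of the carriers against 3.24% of all probes.

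SCNT and AI met directly in caruncular tissue, in 2 pairs of pools. None of the 149 carriers passed the test, nor did any of the 13824 probes (0%), and 27 carriers (18.1%) had an unadjusted p under 0.05, beside 12.6% of all probes. The smallest was that of SLC27A6, the fatty acid carrier, with -1.26 and -1.0 in SCNT pools 1 and 2 against their AI pools (fitted -1.13 ± 0.10, adjusted p = 0.0753). SLC39A4 was at -0.81 and -0.97 (-0.89 ± 0.09, adjusted p = 0.0907) and SLC1A1 at -0.66 and -0.76 (-0.71 ± 0.08, adjusted p = 0.11). SLC16A11 was at -0.63 and -1.38 (-1.01 ± 0.18, adjusted p = 0.156), SLC18A2 at -0.60 and -1.19 (-0.89 ± 0.15, adjusted p = 0.147) and SLC22A5 at -0.56 and -0.36 (-0.46 ± 0.09, adjusted p = 0.184). In each of these 6 genes both pools lay below their AI pools, a likeness that the choice by smallest p over 2 pairs favours and that is no result.

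SLC15A1 and SLC41A2, chosen in the same way, lay above 0 in both SCNT pools. SLC15A1 was at 1.02 and 0.42 in SCNT pools 1 and 2 (0.72 ± 0.16, adjusted p = 0.208), and SLC41A2, a magnesium carrier, at 0.57 and 0.49 (0.53 ± 0.08, adjusted p = 0.133). SLC2A1 was at 0.23 and 0.05 (0.14 ± 0.09, 95% interval -0.09 to 0.37). The 7 trophoblast markers had medians of 2.13 and 0.46 in the same pools, led by TKDP1 at 2.24 ± 0.34 (adjusted p = 0.127), and none was called. The 8 epithelial markers had medians of -0.14 and -0.61. The part of trophoblast or epithelial RNA in the pools' values was not tested.

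IVF-ET was compared with AI in both areas, and no carrier passed the test in either. In caruncular tissue 0 of 149 were called, beside 0.0217% of all probes, and 16 (10.7%) had an unadjusted p under 0.05, beside 9.12% of all probes. Their differences lay between -0.45 for the thiamine carrier SLC19A2 and 0.34 for SLC16A11, with a median reach of the 95% interval to either side of 0.14. The smallest p was that of SLC43A1, the carrier of large neutral amino acids, at 0.23, 0.39, 0.39, 0.45 and 0.09 in IVF-ET animals B00049, B00054, B9073, B99058 and B99111. All 5 lay above their AI partners (0.31 ± 0.06, adjusted p = 0.256). SLC2A1 was at -0.70, -0.999, 0.51, -0.10 and -0.50 in the same animals, with B9073 alone above 0 (-0.36 ± 0.19, 95% interval -0.77 to 0.06). SLC15A1 was at 0.17, -0.09, -0.000625, 0.08 and -1.05, so that a single animal, B99111, lay far from the others (-0.18 ± 0.16).

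In intercaruncular tissue 0 of 149 were called, beside 0.00724% of all probes, and 21 (14.1%) had an unadjusted p under 0.05, beside 9.3% of all probes. The median reach of the 95% interval to either side was 0.23. SLC13A4, a sulfate carrier, was at -0.47, -0.16, -0.52, -0.35 and -0.24 in the IVF-ET animals in the same order, all below their AI partners (-0.35 ± 0.08, adjusted p = 0.332). SLC30A5, a zinc carrier of the secretory pathway, was at -0.30, -0.63, -0.87, -0.11 and -0.40 (-0.46 ± 0.11, adjusted p = 0.332), while its second probe was at 0.07 ± 0.16. SLC2A1 was at -0.77, -0.14, 0.02, -0.10 and -0.48 (-0.29, 95% interval -1.02 to 0.43), and SLC15A1 at 0.44, -0.52, -0.64, -0.16 and -0.50 (-0.28 ± 0.18).

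The difference between the areas was tested in 1 fit over both loops, with both areas of an animal taken as separate. Of the 149 carriers 0 were called, beside 0.00723% of all probes, and 15 (10.1%) had an unadjusted p under 0.05, beside 7.88% of all probes. SLC30A5 had the smallest p, with a difference of 0.55 ± 0.12 between the caruncular and the intercaruncular effect of IVF-ET (adjusted p = 0.435), followed by SLC40A1 at -0.63 ± 0.16 (adjusted p = 0.457). SLC40A1 was at -0.04, -0.18, -0.40, -0.09 and -0.09 in caruncular tissue of the 5 IVF-ET animals and at -0.04, 0.15, 0.95, 0.76 and 0.51 in intercaruncular tissue. A p above the threshold does not show that the areas or the groups were alike, and the intervals above give the sizes that remain possible.

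**Figure D4:**
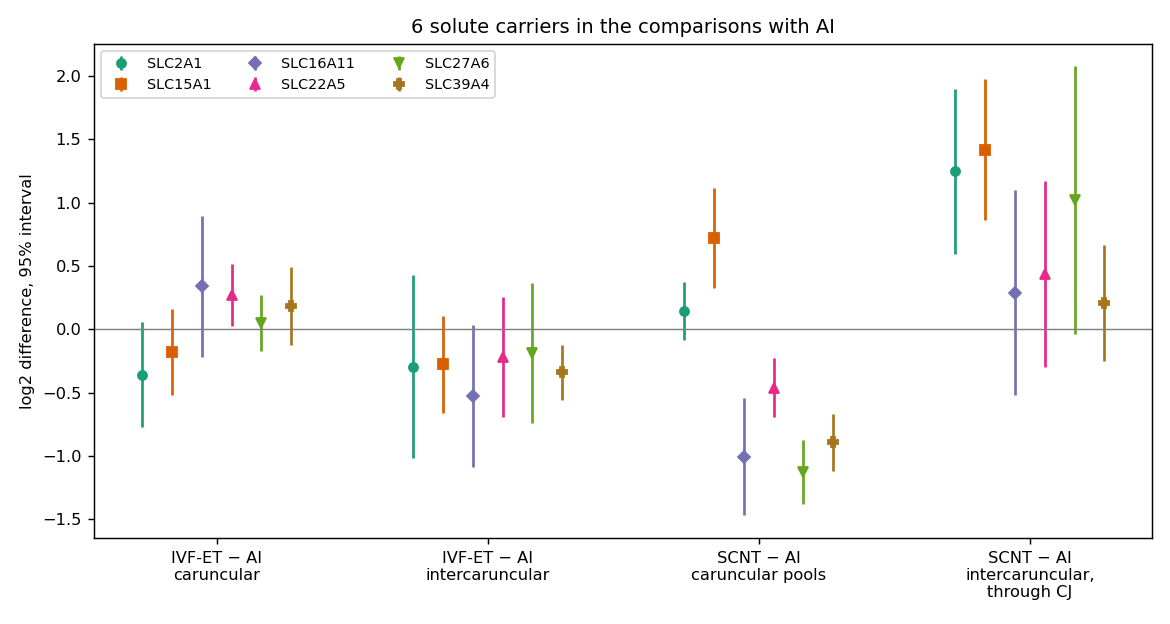
Fitted log2 differences with 95% intervals (vertical axis) of 6 carriers, SLC2A1, SLC15A1, SLC16A11, SLC22A5, SLC27A6 and SLC39A4, in the 4 comparisons with AI (horizontal axis), drawn as IVF-ET minus AI or SCNT minus AI. SLC15A1 in intercaruncular tissue, at 1.42, is the only value drawn that passed the test over all probes. SLC16A11, SLC22A5, SLC27A6 and SLC39A4 lay below 0 in the caruncular pools, between -1.13 and -0.46.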

How the data were processed

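The authors deposited log2 ratios of the 2 dyes, 1 value per spot and array. Of the 331 values below -4, 100.0% equalled log2 of a ratio with 4 decimals. How spots were corrected and scaled upstream is not stated in the labels used here. The median of an array was -0.02 to 0.01, so the values were used as they stood. The 2 spots of a probe were averaged; they correlated at 0.55 to 0.93 per array, across probes.

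Ratios were turned to the first-named group over the second. limma 3.58.1 (R 4.3.3) fitted every probe with a term for dye and a correlation between arrays of the same animal in the same area. It was set to 0.13 for caruncular IVF-ET arrays, 0 for intercaruncular ones, 0.01 for the fit over both areas and 0.07 for arrays with CJ. Both dye orientations of a pair of pools were averaged and the pairs tested against 0. P-values were adjusted by Benjamini-Hochberg over all probes measured on at least 80% of arrays. With correlations of 0 to 0.13, arrays of the same animal counted almost as separate values, and fully so at 0. P-values of these fits therefore rest largely on the spread between arrays. For the pools, a gene's own spread between so few pairs says little. Their SE and p-values rest largely on the spread that limma shares over all probes. P-values of all fits cover these few animals and pools alone, and having more arrays than animals does not make up for that. The fit was tested on simulated data. Alternatives were median centring, scaling, the filter, single spots, another probe, the correlation, the dye term, array weights and leaving out each animal. Counts of the gene lists without B4 were added after seeing the data.

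Members, lists and tests were chosen with earlier results of these data known. Values per animal were given for up to 8 called rises and falls per comparison and for called glucose, peptide, amino acid and mitochondrial carriers. Other genes with values per animal or without B4 (SLC1A1, SLC18A2, SLC13A4, SLC40A1, SLC43A1 and SLC30A5 among them, and the pools' genes) were chosen by smallest p or after their values were seen.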

Additional observations from a re-analysis of the deposited data

Results flagged for a closer look

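Among 46 sets of values per animal (23 genes, SCNT and AI against CJ), 2 had a single outlying animal by Dixon's test at 95%, and chance marks about 1 in 20 sets. Both were AI animal B4. SLC1A5, the glutamine carrier, was at 0.14 in B4, against -0.71 to -0.58 in B2, B3 and B6. SLC6A9, the glycine carrier, was at 0.0359 in B4, against -0.58 to -0.54 in the other 3.

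SLC15A1 differed between SCNT and AI, each against CJ, by 1.42 in a direct test of that difference (limma adjusted p = 0.0173). It was the 1 carrier of 149 to do so, and without B4 the difference was 1.13 ± 0.30 (adjusted p = 0.281).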

How the results depend on the processing

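Counts of called carriers stayed at 0 for both IVF-ET comparisons and their difference under all settings. For the SCNT and AI pools, the count of 0 became 1 with median-centred arrays, 4 with the first spot only and 5 with the 4 arrays as separate values; each pair of pools alone gives values without a test. In SCNT against CJ the count of 45 lay between 34 and 52 over 10 settings and between 34 and 54 over 14 fits without 1 animal. In AI against CJ the count of 23 became 38 with array weights, and without 1 animal it lay between 13 (without B857) and 33 (without B4), with 15 without B7. SCNT against AI through CJ had 1 call, 0 with arrays scaled to the same spread and 0 to 2 without 1 animal. The cause was not tested. Of the 45 calls in SCNT, 26 held under every setting and in every fit without 1 animal, and of the 23 in AI, 11 did. Under the 10 settings alone, 33 of the 45 and 15 of the 23 held. No difference changed sign. Animals of different groups were not paired, because the labels give no replicate numbers for it. The areas of an animal present in both IVF-ET loops were not paired either, although the labels would allow it. Spot signal over background was not used here, so what dim spots limit is unknown, and the unstated dye direction and scaling bear on every value.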
